A study of Sus scrofa with 11 samples.

Results

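Fatty acid oxidation enzymes and the lipid droplet protein PLIN5 were followed in back muscle (longissimus lumborum) of 11 female pigs aged 23 weeks. The 7 genes are CPT1B, ACADS, ECI2, HADHA, HADH, ETFB and PLIN5, of 25322 gene rows in all. They were chosen by symbol with their difference between the histology groups already known, so their values in that contrast are a description and support nothing by themselves. All 7 symbols matched 1 pig Ensembl ID each, and all 7 passed the filter on low counts. The fibre1 group (7 pigs) had over 17% of type I fibres, which are slow and oxidative, and under 70% of type IIB fibres, which are fast and glycolytic. The fibre2B group (4 pigs) had under 8% of type I and over 70% of type IIB fibres. The labels name no treatment, breed or genotype. Every sample is a separate pig, and replicates are therefore animals.

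In beta-oxidation, long-chain fatty acids are linked to carnitine at the outer mitochondrial membrane, carried into the matrix, and shortened there in repeated rounds of dehydrogenation, hydration, a further dehydrogenation and thiolysis. Electrons of the first dehydrogenation pass through the electron transfer flavoprotein to the respiratory chain. Type I fibres rely on this route more than type IIB fibres do, and they hold more mitochondria and more lipid droplets, whose surface is coated by perilipins.

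Estimated counts per gene were deposited for every pig, with totals between 14832736 (fibre2B pig 14) and 36374829 (fibre1 pig 12). Levels are given as CPM (counts set to a common library total) after scaling by TMM factors, which ran from 0.718 in fibre1 pig 5 and 0.779 in fibre1 pig 6 to 1.19. The 10 most abundant nuclear genes took 45.2% and 44.2% of the counts in those 2 pigs, against 29.5% to 36.8% in the other 9. CPM is not per length, so levels are compared between pigs and not between genes. Markers of skeletal muscle were present in every pig, with summed levels of 97250 to 204800 CPM in fibre1 and 74090 to 111800 CPM in fibre2B. In bulk muscle, fewer cells of a type and less RNA per cell cannot be told apart.

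All 7 genes had a positive log2 fold change (fibre1 minus fibre2B), a sign that 50.7% of the 11329 genes tested had. Their median was 0.61, against 0.01 over all genes tested. Only ECI2 had an adjusted p under 0.05 in edgeR's quasi-likelihood test, where 9.01% of all genes did in either direction and 4.38% were higher in fibre1. None of the 7 had every fibre1 pig above every fibre2B pig, a separation found in 3.40% of genes. Because the contrast chose the genes, nothing is read from these counts. Fibre1 pig 1 was the highest pig for 6 of the 7 genes, all but ETFB, and fibre2B pig 14 was the lowest for 6, all but HADH.

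**Figure D1:**
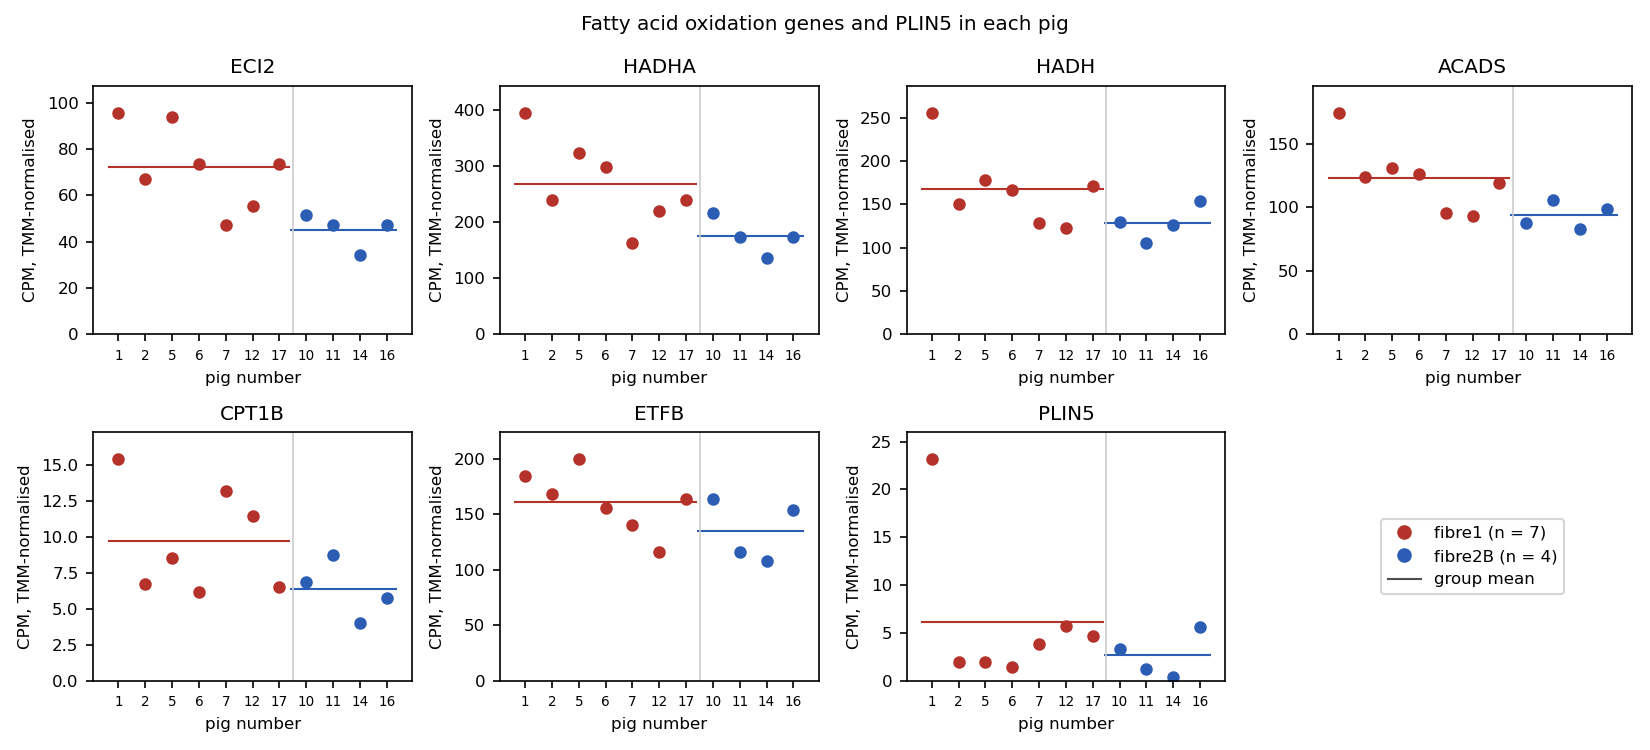
Level of each of the 7 genes (CPM, TMM-scaled) in each of the 7 fibre1 and 4 fibre2B pigs, with the group means. Fibre1 pig 1 is the highest point for every gene but ETFB, and its PLIN5 level of 23.2 CPM stands far above the next pig at 5.69 CPM.

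CPT1B (ENSSSCG00000022364) encodes the muscle form of carnitine palmitoyltransferase 1, which links fatty acids to carnitine and limits their entry into mitochondria. It ranged from 6.12 to 15.4 CPM with a median of 8.56 CPM in the fibre1 pigs, against 6.88, 8.76, 4.03 and 5.73 CPM in fibre2B pigs 10, 11, 14 and 16. Only fibre1 pigs 1, 7 and 12 lay above all fibre2B pigs, so the groups overlapped widely. The means were 9.70 ± 3.68 CPM (SD, n = 7) and 6.35 ± 1.99 CPM (SD, n = 4), and the log2 fold change was 0.61 ± 0.29 (SE). CPT1B was counted at 71 to 445 reads per pig, fewer than the other enzymes.

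ACADS (ENSSSCG00000009916), short-chain acyl-CoA dehydrogenase, makes the first dehydrogenation on short chains. It ranged from 92.7 to 174 CPM with a median of 124 CPM in fibre1, against 87.9, 106, 83.0 and 98.2 CPM in fibre2B pigs 10, 11, 14 and 16. Of the fibre1 pigs, 5 of 7 lay above every fibre2B pig, and pigs 7 and 12 fell among them. The means were 123 ± 27.1 CPM (SD, n = 7) and 93.7 ± 10.3 CPM (SD, n = 4), with a log2 fold change of 0.39 ± 0.17 (SE).

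ECI2 (ENSSSCG00000001000) encodes an enoyl-CoA isomerase, which moves the double bonds of unsaturated fatty acids to where the cycle can take them. It ranged from 47.4 to 95.9 CPM with a median of 73.5 CPM in fibre1, against 51.6, 47.1, 34.2 and 47.2 CPM in fibre2B pigs 10, 11, 14 and 16. All fibre1 pigs but pig 7 lay above every fibre2B pig. The means were 72.5 ± 18.1 CPM (SD, n = 7) and 45.0 ± 7.51 CPM (SD, n = 4), with a log2 fold change of 0.69 ± 0.20 (SE). Its adjusted p of 0.0479 in edgeR, given as a description, stayed under 0.05 without fibre1 pig 7 or pig 12 and was 0.0581 to 0.152 without any other single pig.

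HADHA (ENSSSCG00000008571) is the alpha subunit of the mitochondrial trifunctional protein, which carries out the later steps on long chains. It ranged from 163 to 395 CPM with a median of 239 CPM in fibre1, against 217, 173, 136 and 173 CPM in fibre2B pigs 10, 11, 14 and 16. Again all fibre1 pigs but pig 7 lay above every fibre2B pig. The means were 268 ± 76.6 CPM (SD, n = 7) and 175 ± 33.2 CPM (SD, n = 4), with a log2 fold change of 0.62 ± 0.22 (SE).

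HADH (ENSSSCG00000009150), 3-hydroxyacyl-CoA dehydrogenase, makes the second dehydrogenation on medium and short chains. It ranged from 123 to 256 CPM with a median of 167 CPM in fibre1, against 130.1, 105, 127 and 154 CPM in fibre2B pigs 10, 11, 14 and 16. The top fibre1 pig, pig 1, stood apart from the next at 178 CPM, and 4 of the 7 fibre1 pigs lay above all fibre2B pigs. The means were 168 ± 44.4 CPM (SD, n = 7) and 129 ± 20.1 CPM (SD, n = 4). The log2 fold change of HADH was 0.38 ± 0.19 (SE), and 0.25 without fibre1 pig 1.

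ETFB (ENSSSCG00000003229) is the beta subunit of the electron transfer flavoprotein. It ranged from 116 to 199.8 CPM with a median of 164 CPM in fibre1, against 164, 116, 108 and 153 CPM in fibre2B pigs 10, 11, 14 and 16. Of the fibre1 pigs, 4 of 7 lay above every fibre2B pig, the highest of them pig 5, and the other 3 overlapped with fibre2B. The means were 161 ± 27.7 CPM (SD, n = 7) and 135 ± 27.7 CPM (SD, n = 4). Its log2 fold change of 0.25 ± 0.17 (SE) was the smallest of the 7.

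PLIN5 (ENSSSCG00000013513), the perilipin that ties lipid droplets to mitochondria in oxidative tissues, varied most. It ranged from 1.39 to 23.2 CPM with a median of 3.86 CPM in fibre1, against 3.35, 1.26, 0.341 and 5.57 CPM in fibre2B pigs 10, 11, 14 and 16. Only fibre1 pigs 1 and 12 lay above all fibre2B pigs, and 3 fibre1 pigs were under 2 CPM. The means were 6.09 ± 7.70 CPM (SD, n = 7) and 2.63 ± 2.33 CPM (SD, n = 4), with a log2 fold change of 1.21 ± 0.79 (SE). The lowest count was 6 (fibre2B pig 14) and the highest 474 (fibre1 pig 1). The log2 fold change of PLIN5 was 0.32 without fibre1 pig 1, 0.86 without fibre2B pig 14, 1.86 without fibre2B pig 16 and -0.04 without fibre1 pig 1 and fibre2B pig 14 together, a pair left out after seeing the data. Its biological coefficient of variation was 81.2%, against 20.9% to 32.2% for the other 6 genes and a median of 25.4% over all genes tested.

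The size of the folds depended on those extreme pigs and on scaling. Without fibre1 pig 1 and fibre2B pig 14, the log2 fold changes were 0.31 for CPT1B, 0.25 for ACADS, 0.41 for HADHA, 0.25 for HADH and 0.13 for ETFB. With total counts in place of TMM factors, also tried after seeing the data, they were 0.18 for ACADS, 0.40 for HADHA, 0.17 for HADH and 0.05 for ETFB, while the median of all genes was -0.19. ETFB had 0.17 without fibre2B pig 14 alone.

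Summed fibroblast markers and summed blood markers were highest in fibre2B pig 14, but most single markers were not. Of those tested, COL3A1 and HBB were highest in that pig, and DCN and LUM in fibre2B pig 11. COL1A2 and POSTN were highest in fibre2B pig 10, and FBN1 and ALAS2 in fibre2B pig 16. Summed fibroblast and matrix markers lay at 475 to 987 CPM in fibre1 pigs and 750 to 1448 CPM in fibre2B pigs, highest in fibre2B pig 14, and DCN and LUM of the 6 tested were higher in fibre2B. Summed blood markers lay at 137 to 467 CPM in fibre1 pigs and 423 to 955 CPM in fibre2B pigs, again highest in pig 14. Summed slow-fibre genes lay at 7379 to 26260 CPM in fibre1 pigs and 2409 to 9230 CPM in fibre2B pigs, highest in fibre1 pig 1 and lowest in fibre2B pig 14. Summed fast-fibre genes lay at 64720 to 131900 CPM in fibre1 pigs and 72800 to 76420 CPM in fibre2B pigs. Log2 fold changes were positive for 7 of 7 slow-fibre genes (median 0.95) and for 5 of 6 fast-fibre genes (median 0.37). In edgeR 0 genes of either list passed. The adipocyte marker PLIN1 was at 0.0541 to 1.10 CPM in fibre1 and 0.260 to 0.886 CPM in fibre2B, and ADIPOQ, LEP, FABP4 and CIDEA were not analysed here. Summed adipocyte markers, mostly GPD1, which muscle also expresses, lay at 1866 to 3692 CPM in fibre1 pigs and 2064 to 2334 CPM in fibre2B pigs. Of the 5 tested, 4 had a positive log2 fold change, and the only one called, RBP4, was lower in fibre1 (log2 fold change -2.67, edgeR adjusted p = 0.038), with 0.0541 to 1.29 CPM in fibre1 pigs and 0.596, 4.16, 5.85 and 0.521 CPM in fibre2B pigs 10, 11, 14 and 16. PCK1, too low to be tested, was at most 0.184 CPM in fibre1 pigs, against 10.01 and 3.23 CPM in fibre2B pigs 11 and 14 and 0 in pigs 10 and 16. The part of these markers in the values of the 7 genes was not tested.

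Ratios within a library do not depend on scaling factors and set a gene beside its partner. The first gene of each ratio was chosen with the contrast known. A higher ratio in fibre1 therefore follows in part from that choice, and the ratios are a description with no test. HADHA and HADHB are the subunits of the trifunctional protein and lie next to each other in the RefSeq gene table. The log2 ratio of HADHA over HADHB ranged from 0.30 to 1.25 with a mean of 0.80 ± 0.33 (SD, n = 7) in fibre1, against 0.45, 0.37, -0.05 and 0.06 in fibre2B pigs 10, 11, 14 and 16, whose mean was 0.21 ± 0.24 (SD, n = 4). All fibre1 pigs but pig 7 lay above every fibre2B pig. HADHB itself averaged 151 ± 32.8 CPM in fibre1 and 149.8 ± 14.8 CPM in fibre2B (SD, n = 7 and 4), with a log2 fold change of 0.01 ± 0.16 (SE) that turned sign under several alternatives.

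ETFB over ETFA, the other subunit of its flavoprotein, had a mean log2 ratio of 0.23 ± 0.50 (SD, n = 7) in fibre1 and -0.27 ± 0.15 (SD, n = 4) in fibre2B. Fibre1 pigs ran from -0.57 to 0.89 and enclosed the whole range of fibre2B. ETFB over ETFDH, the oxidoreductase that takes electrons from the flavoprotein, was 0.66 ± 0.52 and 0.65 ± 0.31. CPT1B over CPT1A, the form that leads in liver, was 0.92 ± 0.66 in fibre1 and -0.01 ± 0.91 in fibre2B, where pig 11 reached -1.08. ACADS over the medium-chain dehydrogenase ACADM was 0.12 ± 0.54 in fibre1 and -0.22 ± 0.22 in fibre2B, and CPT1B over CPT2, the inner-membrane enzyme, was -0.44 ± 0.40 and -0.73 ± 0.54. The groups overlapped in each of these ratios.

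**Figure D2:**
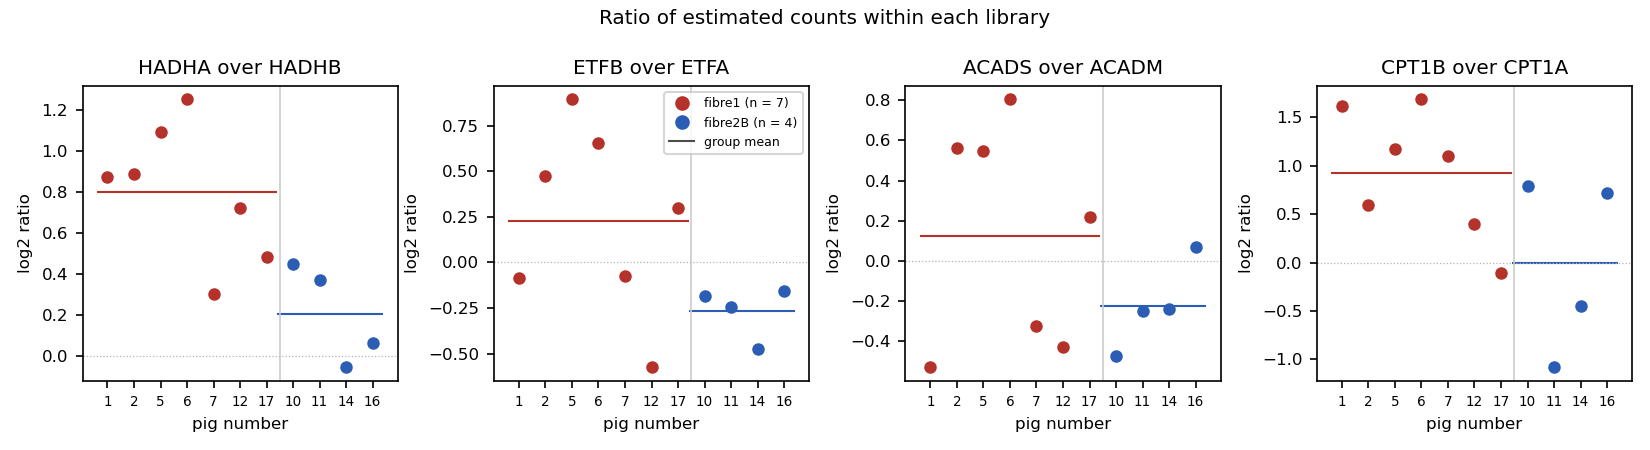
Log2 ratio of estimated counts within each library for 4 genes over a partner, in 7 fibre1 and 4 fibre2B pigs, with lines at the group means. HADHA over HADHB has 6 of 7 fibre1 pigs above every fibre2B pig, while ETFB over ETFA spans more in fibre1 than in fibre2B. The first gene of each ratio was chosen with the contrast known, and no test was made.

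Covariation within fibre1 does not use the difference between the groups, but it is not independent of how the genes were chosen. The same fibre1 pigs entered that contrast, and fibre1 pig 1 was the highest for 6 of the 7 genes. All genes of a pig also share its TMM factor, so the p-values below are descriptions. Over the 7 fibre1 pigs, the median Pearson r of the 21 pairs was 0.68 and the median Spearman rho 0.71, against a median r of 0.0036 over all pairs of tested genes. In the exact permutation test over all 5040 pairings, two-sided, 6 of the 21 pairs had a Benjamini-Hochberg adjusted p of r under 0.05, and 2 had one of rho. HADH and ACADS had r = 0.97 (exact permutation p = 0.00298, adjusted 0.0313) and rho = 0.89 (exact permutation p = 0.0123, adjusted 0.0625), and r = 0.89 without the 2 pigs farthest from the median of HADH. ECI2 and HADHA had r = 0.95 (exact permutation p = 0.00119, adjusted 0.025) and rho = 0.89 (exact permutation p = 0.0123, adjusted 0.0625), and r = 0.88 without the 2 farthest pigs. Within fibre1 the SD of the log2 ratio was lowest for HADH over ACADS, at 0.0892, and was 0.136 for ECI2 over HADHA. Over all 11 pigs, which brings in the fibre2B pigs, it was 0.184 and 0.124. The group means of these log2 ratios differed by -0.019 and 0.076 (fibre1 minus fibre2B).

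A split of the genes was made after these values were seen, and the split itself was not tested. The 10 pairs among ECI2, HADHA, HADH, ACADS and ETFB had a median r of 0.88, from 0.68 to 0.97. The 10 pairs of those 5 genes with CPT1B or PLIN5 had a median r of 0.09, from -0.18 to 0.50. CPT1B and PLIN5 had r = 0.77 with each other (exact permutation p = 0.0341, adjusted 0.0796) and rho = 0.71 (exact permutation p = 0.0881, adjusted 0.168), and r = 0.58 without the 2 farthest pigs. These p-values belong to the same correlations that led to the split, so they cannot test it.

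Fibre1 pig 1 and the scaling both bear on that split. Without pig 1 the medians were 0.88 within the 5 genes and -0.66 across, where all 10 values were negative. With total counts in place of TMM factors, an alternative chosen after seeing the data, they were 0.84 within and 0.57 across. With total counts and without pig 1 they were 0.35 within (-0.50 to 0.86, 3 of 10 negative) and 0.17 across (-0.69 to 0.49, 4 of 10 negative). Neither the high values within the 5 genes nor the uniformly negative values across were kept under that combination. The median r of 0.0036 over all pairs of tested genes was taken with TMM factors. None is given for total counts, so the values with total counts have no background beside them.

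**Figure D3:**
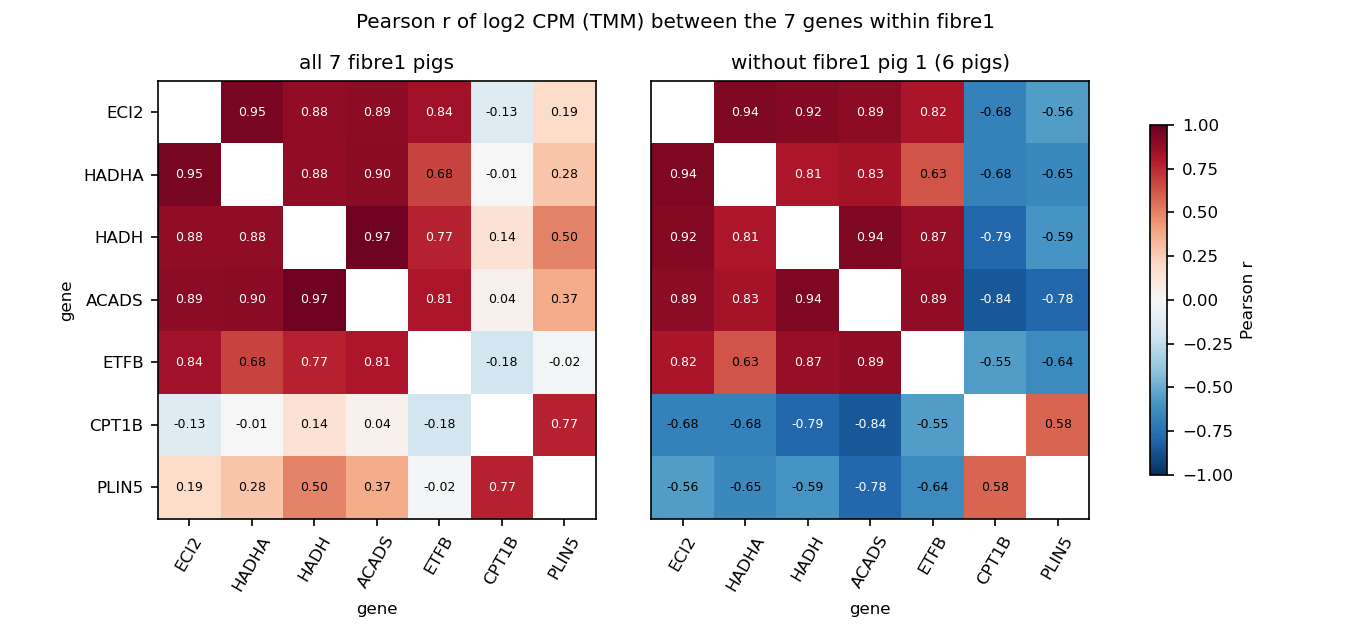
Pearson r of log2 CPM (TMM) for each pair of the 7 genes over all 7 fibre1 pigs (left) and over 6 pigs without pig 1 (right), on a colour scale from -1 to 1. Pairs among ECI2, HADHA, HADH, ACADS and ETFB have r of 0.68 to 0.97 in the left panel, and pairs of these with CPT1B or PLIN5 are all negative in the right panel.

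A mean of the standardised levels of the 7 genes followed the mean of the mitochondrial content list (citrate cycle, respiratory chain and import genes), with r = 0.93 and rho = 0.96 over the 7 fibre1 pigs and r = 0.92 without pig 1. With the list of other mitochondrial beta-oxidation genes it had r = 0.88 and rho = 0.75, and r = 0.56 without pig 1. With the slow-fibre list it had r = 0.77 and rho = 0.32, and r = -0.09 without pig 1. The relation with that list, which does not hold the ID named MYH6, thus rested on 1 pig. With the fast-fibre list r was -0.21, and 0.81 without pig 1. With the share of counts on mitochondrially encoded genes r was 0.01, and -0.65 without pig 1. With the TMM factor r was -0.28, and with the share of the top 10 genes -0.18, against -0.88 and 0.77 without pig 1. These are descriptions over pigs that share 1 scaling step.

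Among 4563 named genes with a mean of at least 5 CPM, the 5 whose levels followed that mean most closely over the 11 pigs, after removing the group means, were MYH6, SDHA, DLST, MIPEP and IMMT. Their Pearson r ran from 0.92 to 0.95, and from 0.88 to 0.98 without fibre1 pig 1. SDHA is a subunit of succinate dehydrogenase (r = 0.95), DLST a subunit of the 2-oxoglutarate dehydrogenase complex (r = 0.95), MIPEP a peptidase of imported mitochondrial proteins (r = 0.92) and IMMT a protein of the inner-membrane folds (r = 0.92). The ID named MYH6, a myosin heavy chain (r = 0.95, and 0.91 without fibre1 pig 1), is uncertain, since closely related myosin genes share sequence. It averaged 5563 ± 4949 CPM in fibre1 and 1134 ± 591 CPM in fibre2B (SD, n = 7 and 4), with 16410 CPM in fibre1 pig 1. Its log2 fold change was 2.29 ± 0.59 (SE, edgeR adjusted p = 0.034). That adjusted p stayed under 0.05 in 4 of the 11 fits with 1 pig left out.

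ETFB was the only one of the 7 genes with several tested isoforms. Isoforms carry no gene name in the deposited table and were joined to genes by inference from the counts. The main isoform (ENSSSCT00000003588) took 89.7% ± 1.72 (SD, n = 7) of ETFB counts in fibre1 and 87.0% ± 1.59 (SD, n = 4) in fibre2B, with fibre1 pigs at 85.95% to 91.0% and fibre2B pigs at 84.7% to 88.3%. All fibre1 pigs but pig 12 lay above every fibre2B pig. A minor isoform (ENSSSCT00000034479) took 2.98% ± 0.793 in fibre1 and 5.20% ± 3.59 in fibre2B. In fibre2B pig 11 it took 10.5% (95% Wilson interval 9.43% to 11.8%, counting error only), against 2.74% to 3.97% in the other 3 fibre2B pigs. The usage test of edgeR, run over 662 genes, gave ETFB an adjusted p of 0.465, and 1.06% of those genes passed. Without fibre2B pig 11 the adjusted p was 0.873.

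**Figure D4:**
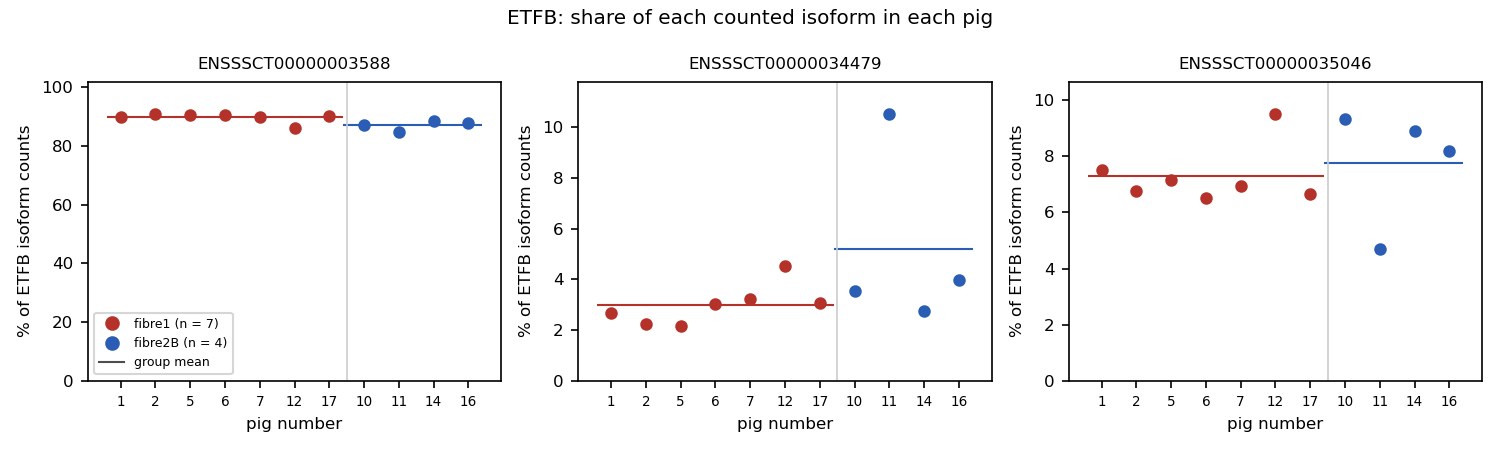
Share of ETFB counts (percent) taken by its tested isoforms in each of the 7 fibre1 and 4 fibre2B pigs. Fibre2B pig 11 stands apart for the minor isoform at 10.5%, and fibre1 pig 12 has the lowest main-isoform share of the fibre1 pigs at 85.95%.

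Other genes of the pathway were taken from 7 lists of 83 genes, of which 62 had an ID and 55 were tested. Of these, 3 were higher in fibre1 and 0 were higher in fibre2B at an adjusted p under 0.05 in edgeR (5.45%, against 9.01% of all genes). A positive log2 fold change was found in 37 of the 55, a sign that 50.7% of all genes tested had. The median log2 fold change of the 55 was 0.14. Among the 3, CRAT, carnitine acetyltransferase, which buffers acetyl-CoA, averaged 714 ± 176 CPM in fibre1 and 411 ± 92.4 CPM in fibre2B (SD, n = 7 and 4), and its log2 fold change was 0.80 ± 0.21 (SE), at an adjusted p of 0.037 in edgeR. ESRRA, a nuclear receptor that drives oxidative genes, had 0.65 ± 0.16 (edgeR adjusted p = 0.032). With 1 pig left out, CRAT stayed under 0.05 without fibre1 pig 7, 12 or 17 or fibre2B pig 11. ESRRA did so without fibre1 pig 6, 7, 12 or 17 or fibre2B pig 10. Without any other single pig these calls were lost, with edgeR adjusted p up to 0.123 for CRAT and 0.107 for ESRRA.

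In the list of other mitochondrial beta-oxidation genes 0 of 13 tested passed in edgeR, with 9 positive and a median log2 fold change of 0.11. Only IVD, which oxidises a leucine product, had an unadjusted p under 0.05 in edgeR (3272 of all 11329 genes had one). DESeq2 called 1 of the 13, IVD, and limma-voom 0. Over all 11329 genes tested, DESeq2 called 1740 and limma-voom 863, and the calls of these tools below stand beside those totals. The 13 include the ID named ACADVL, at 0.23 to 1.06 CPM in fibre1 and 0.56 to 1.08 CPM in fibre2B. It was counted at 4 to 30 reads per pig and may not carry the reads of that gene. ACAD8, ECHS1 and ECI1 of that list had no ID and were not tested. IVD had a log2 fold change of 0.82 ± 0.27 (edgeR adjusted p = 0.068), HSD17B10 had 0.26 and ACADM 0.13, the last turning to -0.16 without fibre1 pig 1. Of the carnitine shuttle, CPT1A had -0.57 and the carrier SLC25A20 had -0.16, neither past the test, and without fibre2B pig 11 they had 0.30 and 0.05. Of fatty acid uptake and activation genes 0 of 6 passed in edgeR, DESeq2 or limma-voom, with 2 at an unadjusted p under 0.05 in edgeR, and ACSL1 at 0.38, ACSL3 at -0.44 and ACSL4 at -0.39. CD36, FABP3, LPL and ACSL5 of that list had no ID and were not tested. ACSL1, at 152 CPM in fibre1 pig 1 and at most 69.0 CPM elsewhere, had 0.02 without that pig and 0.25 without fibre2B pig 14, and ACSL3 had -0.27 without fibre2B pig 14. Of lipid droplet and lipolysis genes 0 of 10 passed in edgeR, 2 had an unadjusted p under 0.05 and 8 were positive. DESeq2 called 1, the lipase gene MGLL (log2 fold change 0.50 ± 0.15), and limma-voom 0. PLIN4, which lies next to PLIN5 in the RefSeq table, had 0.63 ± 0.29. PDK4, a kinase that shuts pyruvate dehydrogenase, had -2.56 ± 0.77 (edgeR adjusted p = 0.054) and reached 707 CPM in fibre2B pig 14, the pig lowest for most of the 7 genes. Without that pig PDK4 had -1.23. PDK2, another kinase of that enzyme, went the other way, with 0.66 ± 0.21 (edgeR adjusted p = 0.067). Of the 11 tested genes in the list for control of oxidation, DESeq2 called 3 (ESRRA, PDK2 and PDK4) and limma-voom 1 (ESRRA).

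**Figure D5:**
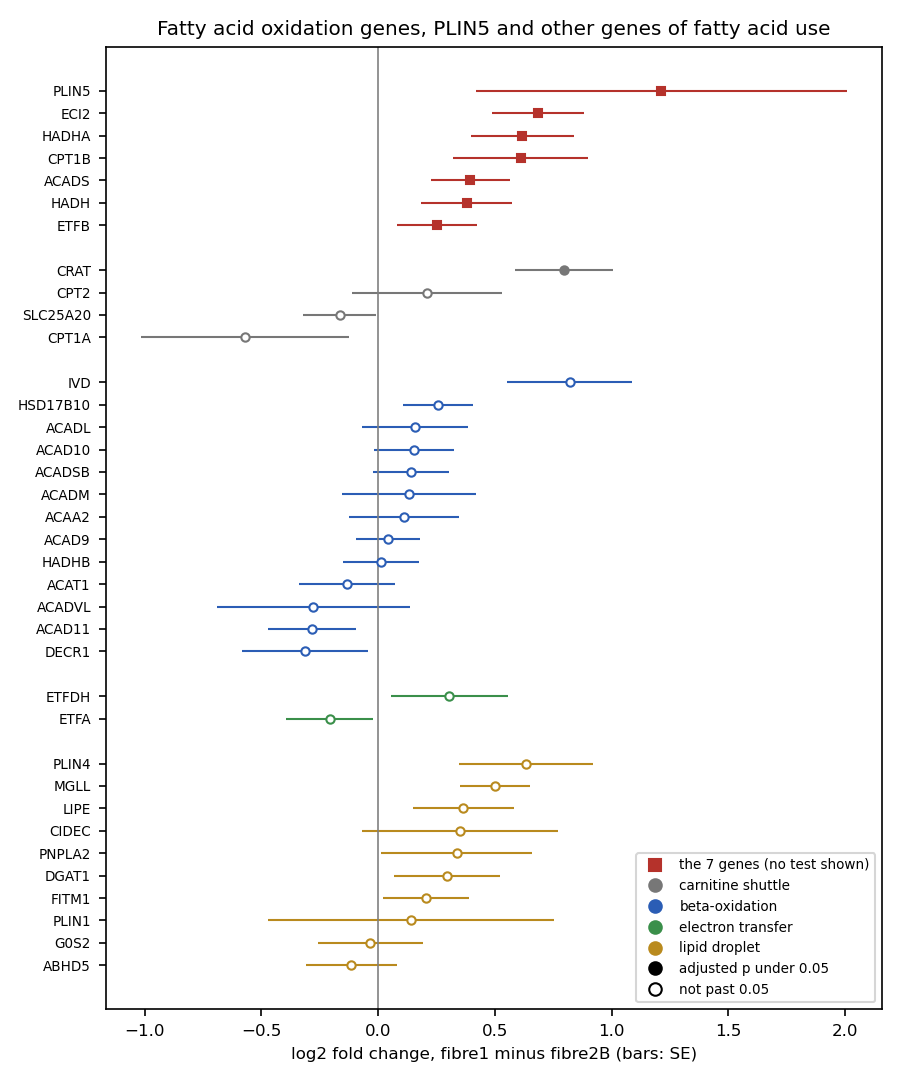
Log2 fold change (fibre1 minus fibre2B) with its SE for the 7 genes, drawn as squares with no test, and for the tested genes of the carnitine shuttle, beta-oxidation, electron transfer and lipid droplet lists, drawn as circles that are filled where edgeR's adjusted p was under 0.05. PLIN5 has the widest error of the 7, at 1.21 ± 0.79, and CRAT is the only filled circle.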

How the data were processed

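RNA of 11 pigs was sequenced from TruSeq libraries made with 300 ng of total RNA, per the labels' protocols. The values deposited by the authors are expected counts per gene and per isoform, not normalized and without decimals, so rounding changed nothing. The submitters' processing notes list the build Sscrofa10.2 and, without roles, STAR, RSEM, FastQC, CASAVA 1.8.2, DESeq2 and edgeR. There were 0 columns of other samples. A gene ID table gave symbols to 11804 rows. The RefSeq table is of another build (Sscrofa11.1) and was used for neighbours only. Over the 55 pairs of pigs, chi-square divided by its degrees of freedom was at least 30.8, so none was counted as a repeat.

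The gene test was that of edgeR 4.0.16 (R 4.3.3; TMM, filterByExpr, quasi-likelihood F test on group, Benjamini-Hochberg at 0.05). SE was obtained as |log2 fold change| over the root of the F statistic. Correlations used log2 CPM with a prior count of 2. Isoforms were joined to genes from row order and sums, which placed 18977 of 21667 counted isoforms, and usage was tested with diffSpliceDGE. The genes, the lists and the tests were chosen with earlier results of these data known. Named genes are the 7, their partners, in each pathway list those past the threshold or up to 3 with the smallest p, and the 5 nearest in covariation. PCK1 and ACADVL were added after their values were seen. Alternatives were other scaling and filters, DESeq2 1.42.0, limma-voom (limma 3.58.1), 1 surrogate variable (sva 3.50.0) and leaving out pigs. The steps were tested on simulated data. Promoter motifs and the ratios of ECI2 to ECI1 and PLIN5 to PLIN2 were not analysed here, and 1 gene that the rule names is not reported here.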

Additional observations from a re-analysis of the deposited data

Results flagged for a closer look

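Of 32 groups of values examined for a pig standing apart, 5 had one, and chance alone gives about 1 in 20. HADH was at 256.2 CPM in fibre1 pig 1, with the next fibre1 pig at 178.2 CPM. PLIN5 was at 23.17 CPM in fibre1 pig 1, with the next at 5.688 CPM. The other 3 are shares of ETFB isoforms, which are not independent of each other. In fibre1 pig 12 the main isoform (ENSSSCT00000003588) was low at 85.95%, with the next pig at 89.8%, and the isoform ENSSSCT00000035046 was high at 9.532%, with the next at 7.509%. In fibre2B pig 11 the isoform ENSSSCT00000034479 took 10.54%, with the next at 3.974%.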

How the results depend on the processing

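The count of genes called and of other pathway genes called, 1021 and 3 in edgeR, moved most. They were 1740 and 7 with DESeq2, 1748 and 6 with voom quality weights, 460 and 1 with a covariate for the counts taken by the top 10 genes, 157 and 0 with no scaling factors, and 28 and 0 without fibre1 pigs 5 and 6. Without fibre1 pig 1 and fibre2B pig 14, chosen after seeing the data, 0 genes and 0 pathway genes were called in edgeR, with 2207 and 10 at an unadjusted p under 0.05. Leaving out 1 pig gave 0 (without fibre2B pig 14, 2436 at an unadjusted p under 0.05) to 1548 genes (without fibre1 pig 12) and 0 to 6 pathway genes. With no scaling factors the median log2 fold change of all genes moved to -0.19 and that of the 7 genes to 0.40, and 33.8% of calls were higher in fibre1, against 48.6%. ECI2 then had 0.47.

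Signs turned as follows, and the cause was not tested. HADHB became -0.0564 (voom quality weights), -0.0063 (voom), -0.174 (no scaling), -0.0214 (upper quartile), -0.114 (without fibre1 pig 1 and fibre2B pig 14), and with 1 pig left out -0.0941 (fibre1 pig 1), -0.0193 (fibre1 pig 17), -0.0319 (fibre2B pig 11) and -0.0067 (fibre2B pig 14). ACADM became -0.0153 (no scaling), -0.197 (without both pigs) and -0.155 (without fibre1 pig 1). Without both pigs PLIN5 was -0.0405, ACSL1 -0.117 and CPT2 -0.259, and CPT2 was -0.0529 without fibre2B pig 14. Without fibre2B pig 11 CPT1A was 0.303 and SLC25A20 0.0496. With 1 pig left out the other end of the range was 0.066 for HADHB, 0.2193 for ACADM, 0.3843 for CPT2, -0.8067 for CPT1A and -0.2535 for SLC25A20. No paired analysis was possible because no replicate number occurs in both groups.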
